A study of Mus musculus with 19 samples.

Results

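The amphetamine response that control and prefrontal D2 receptor knockout mice had in common was measured in the striatum, as the treatment term of a model with genotype and treatment. All 19 libraries of the series enter it, 9 from mice challenged with amphetamine and 10 from mice challenged with saline, and every gene counted was considered. All were male D2RCre_floxCas9-EGFP mice aged 4 months, controls included, so each carried a D2R-driven Cre recombinase together with Cas9 that only Cre switches on. Control mice had received AAV5 syn-mCherry and knockout mice (PFC_D2R-KO) AAV5 D2R-sgRNA in the medial prefrontal cortex (mPFC), which limits Cas9 cutting to D2R-Cre cells that the virus reached there. From 3 weeks after surgery saline was injected on 5 days, and on day 9 the mice were challenged i.p. with amphetamine (3 mg/kg) or again with saline. The labels place death 90 min after the amphetamine injection and give no separate time for saline. With saline there were 5 control and 5 knockout mice, with amphetamine 5 control and 4 knockout mice, and each library came from a mouse of its own. Libraries are named by treatment, genotype and number, as in saline control 5.

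Amphetamine enters dopamine terminals, reverses the dopamine transporter and so floods the striatum with dopamine, which acts on D1 and D2 receptors of the projection neurons and sets off activity-dependent transcription. Molecular chaperones fold new and damaged proteins: the cytosolic ones are switched on by heat shock factor through heat shock elements, and those of the endoplasmic reticulum (ER) by the unfolded protein response through ER stress elements. The circadian clock is a transcriptional feedback loop of activators and of period and cryptochrome repressors that runs in most cells, striatal cells included.

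Library totals ran from 57003408 to 85536346 counts, with between 27591 and 29281 genes detected, and 21513 of 49592 genes passed the filter on low counts. The 14 striatal projection neuron markers all passed that filter, and their mean log2 CPM (counts scaled to library size) ran from 7.47 to 8.26 in saline and from 6.93 to 8.68 in amphetamine libraries. Drd2, which the guides target in another region, cannot check the knockout here and had a median of 114 CPM (76.9 to 154) after saline and of 141 CPM after amphetamine, with a lowest value of 34.1 CPM. Earlier results of these data had put 5 libraries farthest from the others, namely saline control 5, amphetamine control 3, saline knockout 3 and amphetamine knockout 2 and 3. The main counts are also given without these 5. In dissected tissue, fewer cells of a type and less RNA per cell cannot be told apart.

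Transcripts of 17 genes were lower after amphetamine, 6 of them chaperone genes beside others of mixed kinds, and those of 11 genes were higher. The edgeR quasi-likelihood test with Benjamini-Hochberg adjustment called 28 genes at an adjusted p under 0.05, which is 0.13% of the genes tested. Of these, 17 fell (0.079%) and 11 rose (0.0511%). The genes that fell included Hspa8, Stip1 and Dnajb1 of the cytosolic chaperone system and Hspa5, Calr and Hsp90b1 of the ER, together with the phospholipase gene Plcd4. Per3 of the clock, the myosin gene Myo5c and the cell death gene Hrk were among those that rose. Changes were small, with a median size of 0.38 on the log2 scale over the 28 genes and a range from 0.24 for Sox11 to 1.10 for Gm19410, and the median of all tested genes was -0.01.

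In 7 of the 28 genes the 9 amphetamine values and the 10 saline values did not overlap, against 10 of all genes tested (0.0465%). These 7 were Plcd4, Hspa8, Hspa5, Gm15459, Aldh1l1 and H2bc21, all lower after amphetamine, and Scel, which was higher. Within control mice the values of 16 of the 28 genes did not overlap (3.9% of all genes), and within knockout mice those of 17 (5.07%). These counts follow in part from how the 28 were called, on the same values, and are no separate support. At an unadjusted p under 0.05 there were 3015 genes (14%), of which 1612 were lower (7.49%) and 1403 higher (6.52%), where 1076 in all would be met if no gene differed.

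**Figure D1:**
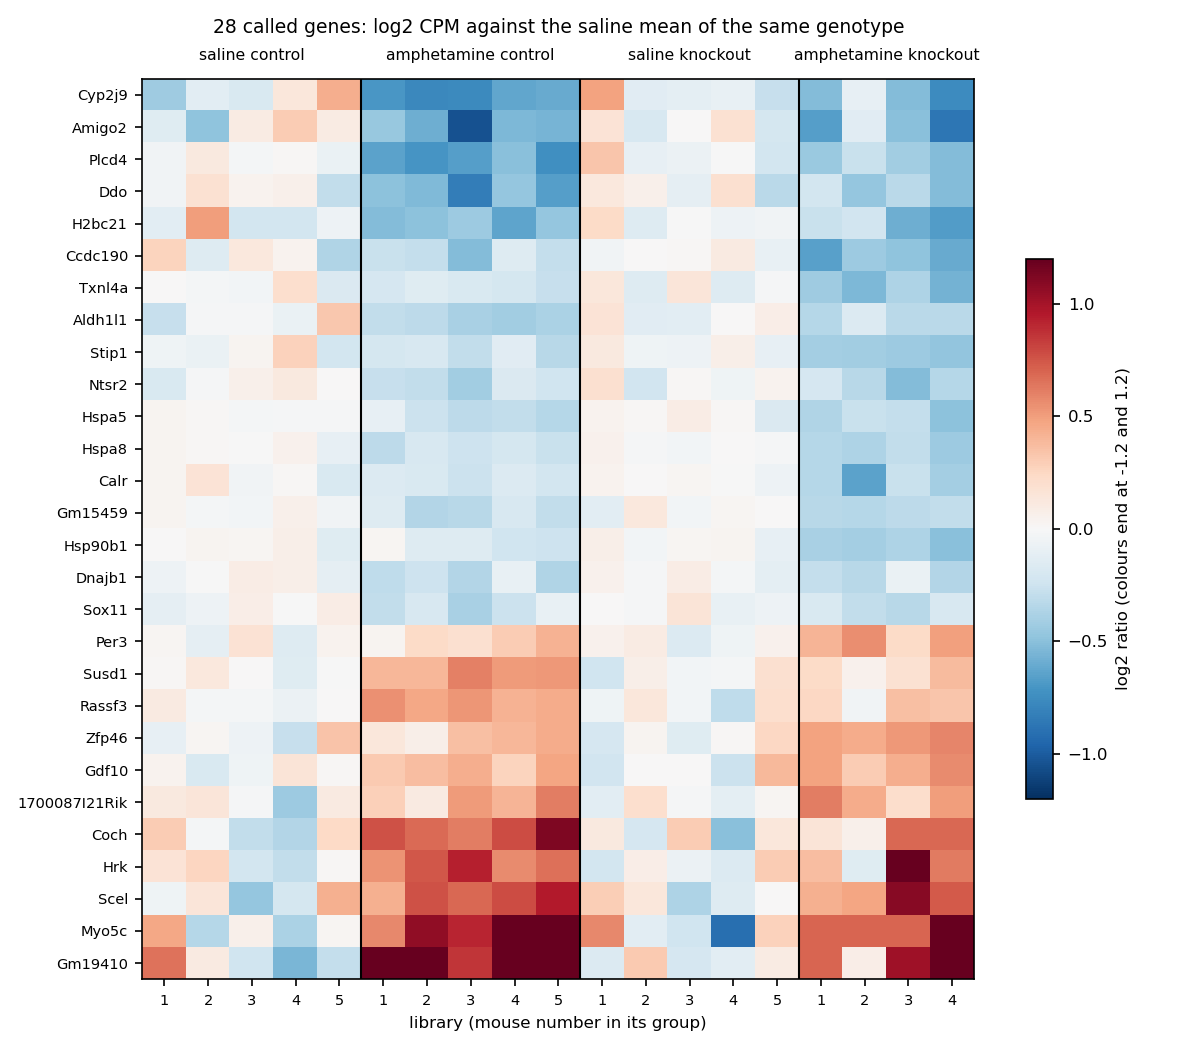
Colour gives the log2 ratio of CPM in each of the 19 libraries (columns, numbered by mouse within a group) to the mean of the saline libraries of the same genotype, for the 28 called genes (lines of the map, from the most lowered to the most raised). The 17 lower genes are blue and the 11 higher genes red across most amphetamine columns of both genotypes. Among the genes that rose, amphetamine knockout 2 is the lowest amphetamine library for Gm19410, Rassf3, Susd1, Gdf10, Coch and Hrk.

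The number of calls depended strongly on single libraries. Leaving out saline control 1, 2, 3, 4 and 5 in turn gave 9, 9, 5, 4 and 243 called genes. Leaving out amphetamine control 1 to 5 gave 12, 8, 3, 10 and 3 genes, saline knockout 1 to 5 gave 7, 8, 79, 4 and 24 genes, and amphetamine knockout 1 to 4 gave 7, 282, 8 and 4 genes. Without the 5 libraries that stand apart 808 of 22041 genes tested were called, 427 lower (1.94%) and 381 higher (1.73%). In that fit 4551 genes had an unadjusted p under 0.05. In each of these 20 fits all 28 genes kept their sign and an unadjusted p under 0.05, and Plcd4, Hspa8 and Gm19410 were called in each of them. That the 28 kept both follows in part from how they were called, since each fit reuses most of the same libraries.

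Of 29 heat shock and cytosolic chaperone genes tested, 3 fell (Hspa8, Stip1 and Dnajb1) and none rose, and at an unadjusted p under 0.05 there were 18 lower and 0 higher (7.49% and 6.52% of all genes). The log2 fold change was below 0 for 28 of the 29, compared with 52.3% of all genes, and the list median was -0.20 beside the -0.01 of all genes. The list was below 0 in both genotypes for 24 members, with a median of -0.09 in control and -0.27 in knockout mice. The response differed between genotypes at an unadjusted p under 0.05 by edgeR in 5 of the 29, against 9.25% of all genes.

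Hspa8 (ENSMUSG00000015656.18, chromosome 9, 40712280 to 40721383, GRCm39) encodes Hsc70, the constitutive Hsp70 that folds new proteins and uncoats clathrin vesicles at synapses. Its CPM was 1568, 1548, 1530.3, 1592 and 1436 in saline control and 1234, 1345, 1289.8, 1327 and 1272 in amphetamine control mice. In knockout mice it was 1756, 1678, 1653, 1691 and 1672 after saline and 1335, 1306, 1375 and 1253 after amphetamine. No amphetamine library of either genotype reached the lowest saline library. Hspa8 fell by 0.30 ± 0.0433 (SE) on the log2 scale with an adjusted p of 0.00776 by edgeR, a level 18.8% lower. In control mice alone the log2 fold change was -0.25 and in knockout mice -0.36, and the difference of -0.11 had a 95% interval from -0.29 to 0.07.

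Gm15459, a processed pseudogene of Hspa8 at chromosome 5, 5831615 to 5833555, was lower as well by -0.29 ± 0.0546 (adjusted p 0.0422, edgeR), in a range from 7.88 to 9.37 CPM after saline and from 6.43 to 7.40 CPM after amphetamine. Its transcript is 99.7% identical to Hspa8 over 1941 bases on the GRCm38 annotation, so reads of the parent gene may have been counted in it. It lies outside the rule for named genes and was singled out after its values were seen.

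Stip1 (chromosome 19, 6998070 to 7017335) encodes Hop, which hands clients from Hsp70 to Hsp90. It ran from 175 to 248 CPM with a median of 216 after saline and from 162 to 186 CPM with a median of 170.4 after amphetamine, and fell by 0.33 ± 0.0601 (adjusted p 0.0422, edgeR). Dnajb1, the Hsp40 that drives the Hsp70 cycle, ran from 62.9 to 76.7 CPM (median 71.2) after saline and from 52.8 to 68.2 CPM (median 57) after amphetamine. It fell by 0.26 ± 0.0499, by -0.27 in control and -0.26 in knockout mice (adjusted p 0.0422, edgeR). The treatments overlapped for both genes.

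Members that were not called lay on the same side. Hspa1a, the stress-inducible Hsp70, had a log2 fold change of -0.57 ± 0.129 (adjusted p 0.0676, edgeR), with 5.52 to 10.1 CPM after saline and 3.29 to 7.51 CPM after amphetamine, and its near copy Hspa1b, with which it may share reads, at -0.41. Ahsa1, which activates the Hsp90 ATPase, stood at -0.25 ± 0.0536 (adjusted p 0.0600, edgeR), with values of -0.13 in control and -0.39 in knockout mice. Its saline libraries ran from 92.8 to 128 CPM and its amphetamine libraries from 86.8 to 96.7 CPM. The only member above 0 was Dnajb5 at 0.03, chosen for mention after its value was seen. Without the 5 libraries apart 12 members were called lower (1.94% of all genes in that fit) and the median was -0.23. Leaving out single libraries gave medians from -0.22 to -0.16. With the levels of 3 tissue marker lists as covariates (hypothalamic, cortical and ependymal, described with those markers) 0 members were called by edgeR. The median was -0.20 there, and 13 members had an unadjusted p under 0.05, all lower (1277 of all 21513 genes in either direction).

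Of the 29 members, 24 have a promoter in the RefSeq table (GRCm38.p6, 250 bases before to 50 after the start), Hspa8 not among them. A heat shock element of 3 units, GAA, TTC and GAA or TTC, GAA and TTC with 2 bases of any kind between units, searched on both strands, was found in 5 of the 24 (20.8%), where 0.561% of the promoters of all genes tested hold it. The 5 were Chordc1, Dnajb6, Hspd1, Hspe1 and Hsph1, and none of the called genes is among them. The shorter form of 2 units, GAANNTTC or TTCNNGAA, which the longer form contains, was found in 14 of the 24 (58.3%) and in 14.5% of the promoters of genes tested.

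**Figure D2:**
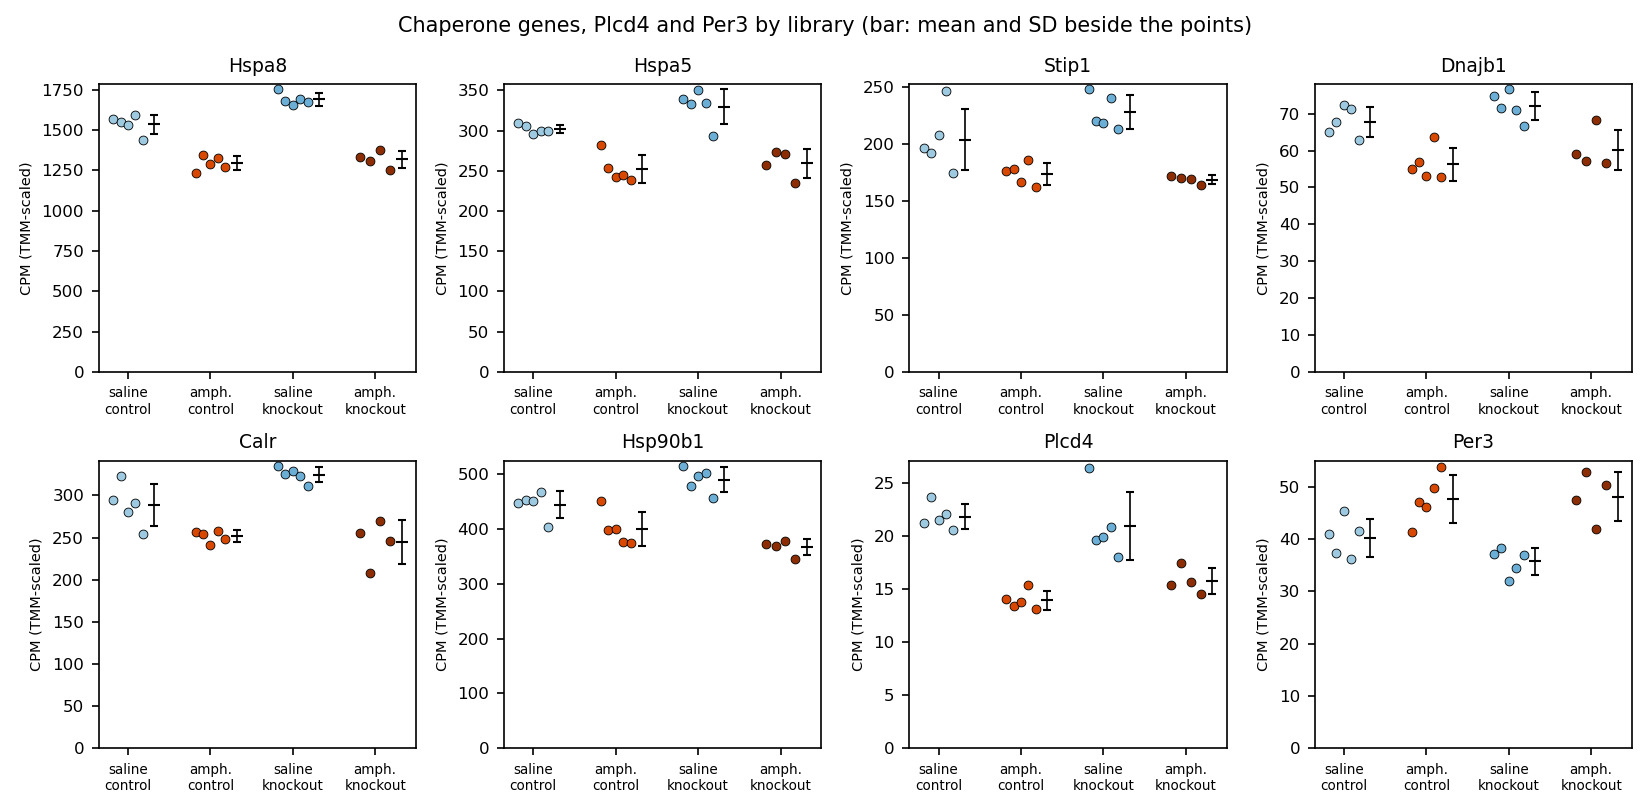
Each point is the TMM-scaled CPM of 1 library (vertical axes, from 0) for 6 chaperone genes, Plcd4 and Per3 in the 4 groups, with the group mean and SD as a bar beside the points. For Hspa8, Hspa5 and Plcd4 each amphetamine point lies under each saline point, and for Per3 the lowest amphetamine libraries, at 41.3 and 42.0 CPM, lie within the saline range.

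Of 21 ER chaperone genes tested, 3 fell (Hspa5, Calr and Hsp90b1) and none rose, and 11 were lower and 0 higher at an unadjusted p under 0.05 (7.49% and 6.52% of all genes). The log2 fold change was below 0 for 19 of the 21, compared with 52.3% of all genes, and the list median was -0.14. The median was -0.09 in control and -0.19 in knockout mice, and 17 members were below 0 in both. For 3 of the 21 the difference between genotypes had an unadjusted p under 0.05 by edgeR (9.25% of all genes).

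The ER stress element, CCAAT followed after any 9 bases by CCACG, searched on both strands from 250 bases before to 50 after the start of a gene, was found in 8 of the 17 ER chaperone promoters given by RefSeq (47.1%), compared with 0.163% of the promoters of all genes tested and 0.137% of 27025 promoters. The 8 genes were Hspa5, Calr, Hsp90b1, Canx, Creld2, Dnajc3, Pdia6 and Syvn1. All 3 that fell hold it, and so do Syvn1 and Dnajc3, whose log2 fold changes of 0.07 and -0.05 did not pass the test. The 250 bases before the start of the 3 called genes (RefSeq, GRCm38.p6) are shown because the element is the feature they share, here in capitals and 5′ to 3′ on the strand of the gene, so that an element on the other strand reads CGTGG before ATTGG. The first lies on the plus strand at chr2:34771840-34772089, the second on the minus strand at chr8:84846932-84847181 and the third on the minus strand at chr10:86705445-86705694.
Hspa5: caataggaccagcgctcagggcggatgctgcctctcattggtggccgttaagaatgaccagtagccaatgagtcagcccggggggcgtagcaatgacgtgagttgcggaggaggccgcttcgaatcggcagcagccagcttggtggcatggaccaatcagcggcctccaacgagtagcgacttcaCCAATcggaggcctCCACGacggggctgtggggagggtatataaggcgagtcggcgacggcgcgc
Calr: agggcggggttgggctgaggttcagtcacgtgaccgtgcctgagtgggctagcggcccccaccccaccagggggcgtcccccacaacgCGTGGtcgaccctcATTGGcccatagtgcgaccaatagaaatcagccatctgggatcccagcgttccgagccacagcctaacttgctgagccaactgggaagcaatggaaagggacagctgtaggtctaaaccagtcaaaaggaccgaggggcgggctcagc
Hsp90b1: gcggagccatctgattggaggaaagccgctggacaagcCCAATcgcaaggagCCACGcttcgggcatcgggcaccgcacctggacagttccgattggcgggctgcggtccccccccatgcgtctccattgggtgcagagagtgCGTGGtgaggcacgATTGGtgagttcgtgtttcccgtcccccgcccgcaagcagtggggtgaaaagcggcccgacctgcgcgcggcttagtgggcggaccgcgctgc
The element starts 65 bases before the start of Hspa5 and 162 bases before that of Calr, and Hsp90b1 has one 212 bases and another 107 bases before its start. A match of letters is a description and does not show that a factor was bound in these mice.

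Hspa5 (ENSMUSG00000026864.14, chromosome 2, 34661982 to 34667559, GRCm39) encodes BiP, the Hsp70 of the ER lumen. It was measured at 309, 305, 296, 299 and 299 CPM in saline control and at 282, 253, 242, 245 and 238 CPM in amphetamine control mice. In knockout mice the values were 339, 332, 349.9, 334 and 293 CPM after saline and 257, 273, 271 and 235 CPM after amphetamine. The highest amphetamine library, amphetamine control 1, still lay under the lowest saline library, saline knockout 5. Hspa5 fell by 0.30 ± 0.0481 (adjusted p 0.0169, edgeR), by -0.26 in control and -0.35 in knockout mice, and the difference of -0.09 had a 95% interval from -0.29 to 0.11.

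Calr encodes calreticulin, a lectin chaperone that also stores calcium. It ran from 254 to 335 CPM with a median of 317 after saline and from 208 to 269.8 CPM with a median of 254 after amphetamine, and fell by 0.30 ± 0.0564 (adjusted p 0.0428, edgeR). Hsp90b1 encodes Grp94, the Hsp90 of the ER, and had 403 to 515 CPM (median 461) after saline and 345 to 451 CPM (median 376) after amphetamine. It fell by 0.28 ± 0.0554 (adjusted p 0.0488, edgeR). The fall of Hsp90b1 was -0.15 in control and -0.42 in knockout mice, and the difference of -0.27 (95% interval -0.47 to -0.07) had an unadjusted p of 0.0117 but was not called. Hsp90b1 shares 3967 bases with 1810014B01Rik, which stood at -0.32 and was not called (adjusted p 0.117, edgeR), and their reads may not be separable, since no source used here gives the strand setting of the counting.

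Pdia3, a disulfide isomerase that works with calreticulin, was not called at -0.22 ± 0.0494 (adjusted p 0.0652, edgeR), with 191 to 242 CPM after saline and 166 to 203 CPM after amphetamine. Without the 5 libraries apart 8 ER chaperone genes were called lower and none higher (1.94% and 1.73% of all genes in that fit), and the median was -0.15. With the 3 tissue covariates 0 were called by edgeR and the median was -0.10. There 7 had an unadjusted p under 0.05, all lower (1277 of all 21513 genes in either direction).

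**Figure D3:**
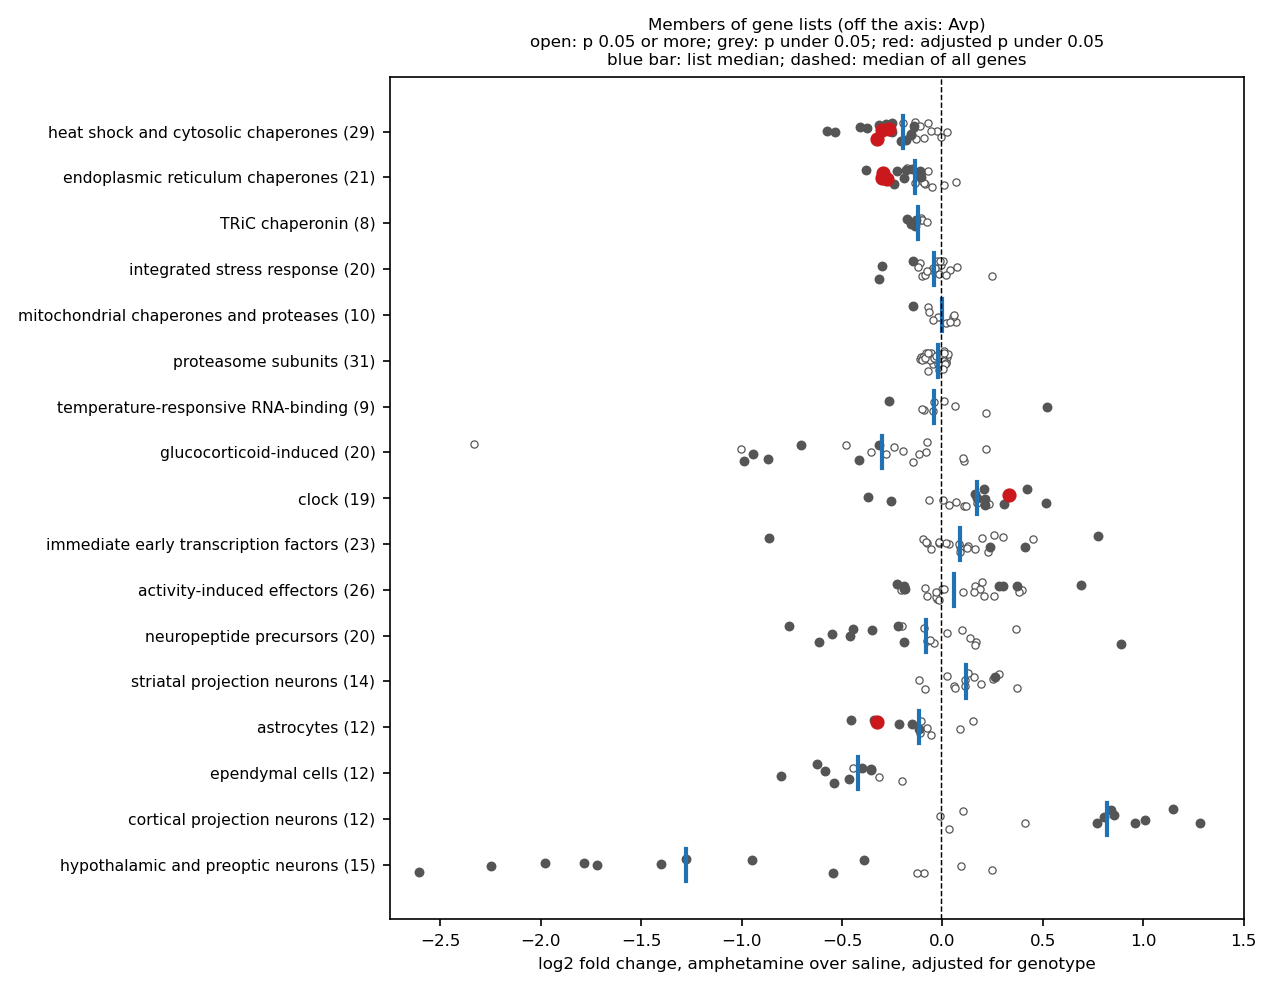
Each point is the log2 fold change of 1 gene (horizontal axis, amphetamine over saline adjusted for genotype), on a line for each gene list with the number tested, where red points were called, grey points had an unadjusted p under 0.05, blue bars mark list medians and the dashed line the median of all genes. The cytosolic and ER chaperone lists lie to the left of 0 with medians of -0.20 and -0.14, while the proteasome list lies around its median of -0.02.

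Other stress and protein quality lists held no gene called by edgeR with all libraries. All 8 subunits of the cytosolic chaperonin TRiC were below 0 with a median of -0.12, and 4 had an unadjusted p under 0.05, with Cct3 lowest in p at -0.17 ± 0.0598 (adjusted p 0.196, edgeR). The list of 20 integrated stress response genes includes Atf4. Of these 20, 3 were lower and 0 higher at an unadjusted p under 0.05, and the median was -0.04. Atf4 had a log2 fold change of -0.14 ± 0.0555. Of 31 proteasome subunits none had an unadjusted p under 0.05 (median -0.02), and of 10 mitochondrial chaperones and proteases 1 was lower (median -0.00). Cytosolic ribosomal protein genes were below 0 for 30 of 30, with a median of -0.12 and 3 at an unadjusted p under 0.05. Without saline knockout 3 that median was -0.048, and without the 5 libraries apart it was -0.038 with 24 of the 30 ribosomal genes below 0.

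Genes induced by glucocorticoids, hormones released in stress, had a median of -0.30 with 6 of 20 lower at an unadjusted p under 0.05. Saline control 5 and saline knockout 1 stood high, with a mean log2 CPM over the list of 5.93 and 5.92, where the next saline libraries of their groups had 4.20 and 4.29. Without saline control 5 the glucocorticoid-induced list median was -0.05, without saline knockout 1 it was -0.12, and without all 5 libraries apart it was -0.04. Fkbp5, a glucocorticoid-induced cochaperone, stood at 174 CPM in saline control 5 and 113 CPM in saline knockout 1, beside 42.7 to 62.9 CPM in the other 17 libraries, and its log2 fold change was -0.24 ± 0.243. Mt2, a metal-binding stress protein gene, stood at -0.70 ± 0.208 and -0.43 without the 5. Cirbp and Rbm3, RNA-binding proteins that rise when tissue cools, were 0.22 ± 0.199 and 0.52 ± 0.234. Amphetamine knockout 2 had the highest Rbm3 value, 189.8 CPM, and saline knockout 1 the lowest, 26.8 CPM.

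Plcd4 (ENSMUSG00000026173.16, chromosome 1, 74582047 to 74606953) encodes phospholipase C delta 4, which cleaves a membrane phosphoinositide to make signalling messengers, and had the smallest adjusted p of all genes at 0.00246 by edgeR. It was measured at 21.2, 23.7, 21.5, 22.1 and 20.6 CPM in saline control and at 14, 13.4, 13.8, 15.4 and 13.1 CPM in amphetamine control mice. In knockout mice the values were 26.4, 19.6, 19.9, 20.8 and 18 CPM after saline and 15.3, 17.4, 15.7 and 14.6 CPM after amphetamine. The 2 treatments were separate in both genotypes. Plcd4 fell by 0.54 ± 0.0688 (SE), a level 31.0% lower, by -0.65 in control and -0.41 in knockout mice, and the difference of 0.24 had a 95% interval from -0.03 to 0.51. Zfp142, which shares 2668 bases with Plcd4, had a log2 fold change of -0.01. Of 15 phospholipase C genes Plcd4 was the only one called, and the list median was 0.01.

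Of the other genes that fell, Aldh1l1 and Ntsr2 are known from astrocytes. Aldh1l1, a folate enzyme that marks astrocytes, ran from 51.4 to 77.8 CPM after saline and from 44.6 to 50.8 CPM after amphetamine without overlap, and fell by 0.33 ± 0.0623 (adjusted p 0.0428, edgeR). It shares 3252 bases with Gm15756, which stood at -0.72 and was not called, and their reads may not be separable. Ntsr2, a neurotensin receptor found on astrocytes, ran from 82.6 to 116 CPM after saline and from 70.0 to 88.4 CPM after amphetamine, and fell by 0.31 ± 0.0574 (adjusted p 0.0422, edgeR). Of 12 astrocyte markers, Aldh1l1 included, 1 was called, 6 were lower and 0 higher at an unadjusted p under 0.05, and the median was -0.11. Their mean log2 CPM was 7.51 to 7.76 in saline and 7.38 to 7.59 in amphetamine libraries, and all 12 passed the filter. How far astrocyte content moved these genes was not tested.

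Ddo, D-aspartate oxidase, an enzyme that degrades D-aspartate, fell by 0.49 ± 0.0807 (adjusted p 0.0213, edgeR), from a median of 15.6 CPM (12.3 to 17.7) to one of 10.8 CPM (8.45 to 13.3). Amigo2, a leucine-rich adhesion protein of neurons, fell by 0.57 ± 0.106 from a median of 23.7 to 15.2 CPM, with 4 of the 9 amphetamine libraries inside the saline range, the highest being amphetamine knockout 2 at 24.3 CPM. Ccdc190 fell by 0.41 ± 0.0761 and Txnl4a, a component of the spliceosome, by 0.33 ± 0.0637. Ccdc190 shares 1551 bases with Gm15852 (-0.36) and Txnl4a 5947 bases with Gm16286 (-0.01), both not called, and reads may not be separable. Txnl4a differed between genotypes at an unadjusted p of 0.0278, with -0.20 in control and -0.47 in knockout mice, and the difference was not called. Cyp2j9, a cytochrome P450, H2bc21, a histone H2B, and Sox11, a transcription factor of developing neurons, also fell, by 0.58, 0.47 and 0.24. These 3 lie outside the rule for named genes and are given because they complete the 17.

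Of the 11 genes that rose, Per3 of the clock is the only one that belongs to a gene list. Gm19410 (chromosome 8, 36232944 to 36285201), a predicted gene, had the largest change at 1.10 ± 0.167 (adjusted p 0.0129, edgeR). It was measured at 11.7, 8.01, 6.29, 5.08 and 6.12 CPM in saline control and at 17.2, 22.4, 13.5, 18 and 20.8 CPM in amphetamine control mice. In knockout mice it was 6.18, 8.62, 6.0, 6.35 and 7.42 CPM after saline and 11.2, 7.32, 14 and 17.6 CPM after amphetamine. Amphetamine knockout 2 was the 1 library of the 9 that lay well inside the saline range.

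Myo5c, an unconventional myosin that carries secretory vesicles, rose by 0.96 ± 0.168 (adjusted p 0.0322, edgeR) from a median of 1.04 CPM (0.506 to 1.65) to one of 2.25 CPM (1.53 to 2.87). Scel, which encodes the epithelial protein sciellin, rose by 0.72 ± 0.126 (adjusted p 0.0322, edgeR) from a median of 1.73 CPM (1.27 to 2.34) to one of 2.95 CPM (2.34 to 3.75). Its ranges did not overlap but touched at 2.34 CPM. Scel rose by 0.73 in control and 0.70 in knockout mice, and the 95% interval of the difference ran from -0.57 to 0.51. The non-coding gene 1700087I21Rik, which lies 63.5 kb from Scel on chromosome 14 and was noted after its value was seen, rose by 0.42 ± 0.0825 (adjusted p 0.0428, edgeR).

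Hrk, a BH3-only protein that promotes apoptosis of neurons, rose by 0.66 ± 0.132 (adjusted p 0.0488, edgeR), with 33.4 to 50.6 CPM after saline and 36.9 to 99.2 CPM after amphetamine. Coch, an extracellular matrix protein, rose by 0.63 ± 0.125 from a median of 17.3 to 26.6 CPM. Amphetamine knockout 2 lay inside the saline range of both genes, at 36.9 CPM for Hrk and 16.9 CPM for Coch, and for Hrk it was the only amphetamine library there. Gdf10, a growth factor of the bone morphogenetic protein family, rose by 0.41 ± 0.0799, Zfp46, a zinc finger protein, by 0.39 ± 0.0779, Rassf3, a Ras association domain protein, by 0.37 ± 0.0681, and Susd1 by 0.36 ± 0.0697. Susd1 was at 0.49 in control and 0.21 in knockout mice, with an unadjusted p of 0.0440 for the difference, which was not called. Among the next genes by p, Pcdhga8 at 0.51 ± 0.106 and Rps6ka4 at 0.27 ± 0.0578 were not called (adjusted p 0.0596 and 0.0600, edgeR).

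Of 19 clock genes tested 1 rose, Per3, and none fell, 9 were higher and 2 lower at an unadjusted p under 0.05 (6.52% and 7.49% of all genes), and the median was 0.17, with 0.10 in control and 0.14 in knockout mice. Per3 (ENSMUSG00000028957.13, chromosome 4, 151088109 to 151129122, GRCm39), a period repressor, was at 41.1, 37.4, 45.3, 36.2 and 41.6 CPM in saline control and 41.3, 47.2, 46.1, 49.9 and 53.8 CPM in amphetamine control mice. In knockout mice it was at 37.2, 38.3, 31.9, 34.6 and 37.1 CPM after saline and at 47.5, 52.8, 42.0 and 50.4 CPM after amphetamine. The treatments did not overlap in knockout mice and overlapped in control mice. Per3 rose by 0.33 ± 0.0624 (adjusted p 0.0422, edgeR), by 0.24 in control and 0.43 in knockout mice, and the difference of 0.19 had a 95% interval from -0.07 to 0.44. It shares 41014 bases with Camta1, which stood at -0.09 and was not called, and their reads may not be separable.

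Clock output factors of the PAR bZIP family (Dbp, Tef, Hlf) activate, and Nfil3 represses, through the D-box TTATGTAA, which was searched on both strands in the same 300-base windows. It was found in the promoter of 1 of 17 clock genes, Per3, and in 0.852% of the promoters of genes tested. The E-box CACGTG, which CLOCK and ARNTL bind, was found in 5 of the 17 (Bhlhe41, Ciart, Cry1, Per1 and Tef, 29.4%) and in 10.7% of the promoters of genes tested, and the window of Per3 does not hold it. The 250 bases before the start of Per3 (RefSeq, GRCm38.p6, minus strand, chr4:151044666-151044915) are shown because they hold the motif at 205 and again at 158 bases before the start, here in capitals.
Per3: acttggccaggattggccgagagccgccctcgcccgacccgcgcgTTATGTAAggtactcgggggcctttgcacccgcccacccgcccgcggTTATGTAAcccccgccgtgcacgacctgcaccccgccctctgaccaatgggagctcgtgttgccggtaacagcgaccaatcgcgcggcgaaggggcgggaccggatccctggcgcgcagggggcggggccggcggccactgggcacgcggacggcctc
Nfil3 was not called at -0.37 ± 0.0833 (adjusted p 0.0676, edgeR), with 7.46 to 12.1 CPM after saline and 5.34 to 7.69 CPM after amphetamine. Bhlhe40, a repressor of clock activators, stood at 0.31 ± 0.0728 (adjusted p 0.0752, edgeR), with 65.0 to 76.3 CPM after amphetamine and 52.9 to 58.7 CPM in 9 of the 10 saline libraries, while saline control 5 reached 83.1 CPM. Without saline control 5 the adjusted p of Bhlhe40 was 0.00025 by edgeR and its log2 fold change 0.38. Nr1d2, a nuclear receptor repressor, stood at 0.21 ± 0.0550. Dbp was 0.67 in control and 0.14 in knockout mice, and the difference of -0.53 (95% interval -0.98 to -0.07) was not called.

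Saline control 5 had the highest clock list level of all libraries, 6.17 mean log2 CPM, where the other saline libraries ran from 5.58 to 5.74 and amphetamine libraries from 5.72 to 6.03. Without the 5 libraries apart 10 of the 19 clock genes were called higher (1.73% of all genes in that fit) and the median was 0.27. With the 3 tissue covariates 0 were called by edgeR and the median was 0.10. The hour at which each mouse was killed is not given in the sources used here.

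**Figure D4:**
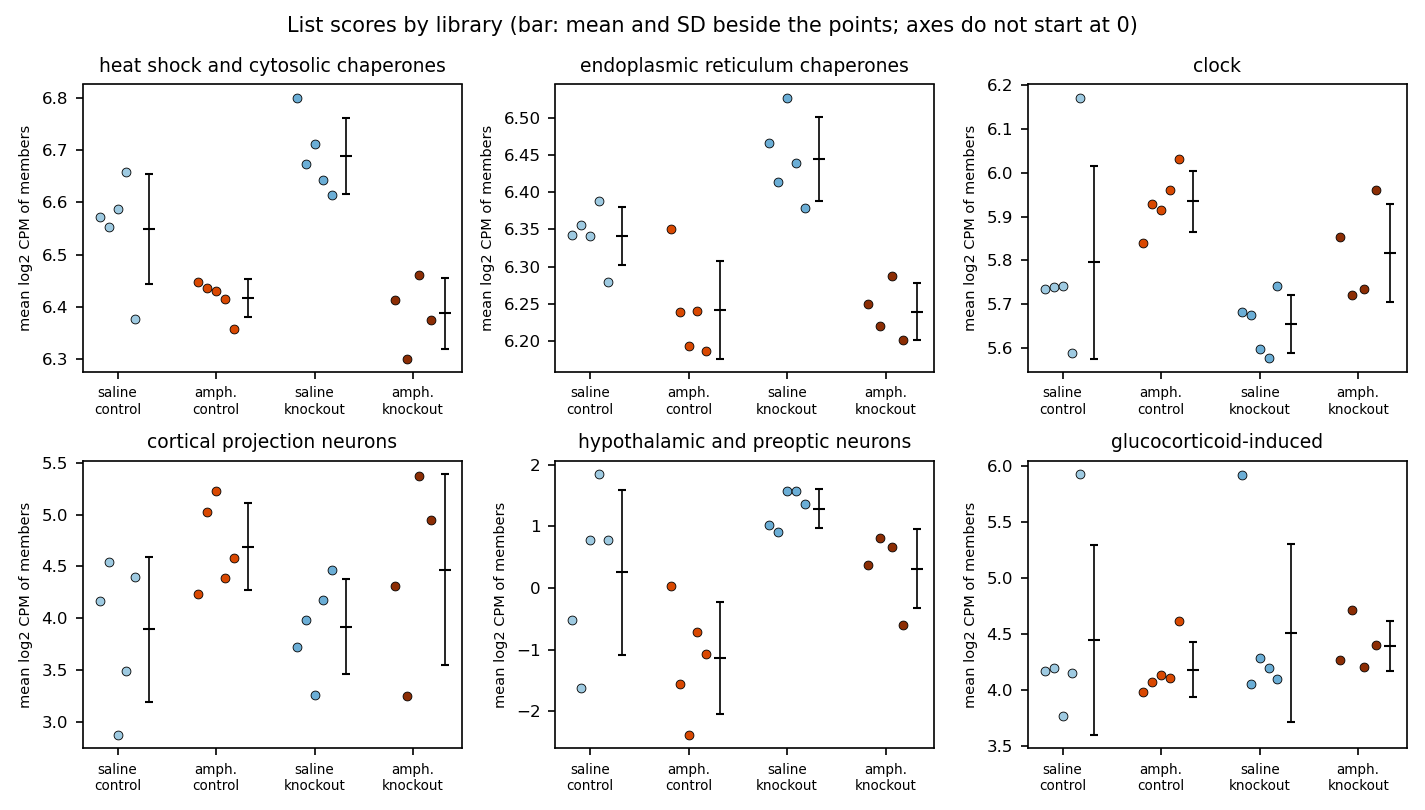
Each point is the mean log2 CPM of a list's members in 1 library (vertical axes, not starting at 0), with the mean and SD of each of the 4 groups beside the points. Both chaperone lists are lower after amphetamine in knockout mice without overlap, while in control mice the treatments overlap for both lists. Cortical neuron markers are higher and hypothalamic markers lower in many amphetamine libraries. Saline control 5 and saline knockout 1 lie at 5.93 and 5.92 for the glucocorticoid list.

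Activity-dependent genes, which neurons transcribe within minutes of firing, were not called by edgeR 90 min after amphetamine with all 19 libraries in the fit. Of 23 immediate early transcription factors 3 were higher and 1 lower at an unadjusted p under 0.05, with a median of 0.09. Fos ran from 29.9 to 56.6 CPM after saline and from 28.6 to 53.2 CPM after amphetamine, with a log2 fold change of 0.03 ± 0.119. Egr1 stood at 0.20 ± 0.143, Junb at 0.24 ± 0.113, Npas4 at -0.06 ± 0.159 and Arc, a synaptic effector, at 0.10 ± 0.198. Btg2, an antiproliferative early gene, came nearest at 0.41 ± 0.0944 (adjusted p 0.0676, edgeR), with 27.0 to 40.0 CPM after saline and 33.4 to 55.6 CPM after amphetamine. Of 26 activity-induced effectors 4 were higher and 4 lower at an unadjusted p under 0.05, among them Plk2, a kinase of synaptic scaling, at 0.37 ± 0.0892 and the phosphatase gene Dusp1 at 0.30 ± 0.0805.

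With the 5 libraries apart left out, edgeR called 2 of the immediate early factors, Btg2 at 0.46 (adjusted p 0.0156) and Junb at 0.35 (adjusted p 0.0303). The early factor median was 0.18 with 6 higher and 0 lower at an unadjusted p under 0.05. In the same fit edgeR called 2 effectors, Plk2 at 0.48 (adjusted p 0.0129) and Dusp1 at 0.39 (adjusted p 0.0188). It called 1.73% of all genes higher there, and 4551 of 22041 genes had an unadjusted p under 0.05 in either direction. With all libraries DESeq2 called Btg2, Plk2 and Dusp1. With the 3 tissue covariates the early factor median turned to -0.15 and the effector median to -0.09. There 3 and 2 genes were lower at an unadjusted p under 0.05 (1277 of all 21513 genes in either direction). Leaving out single libraries moved the early factor median from 0.035 without saline control 5 to 0.17 without saline control 2, and the effector median from 0.0074 without amphetamine knockout 4 to 0.14 without saline control 2.

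Of 20 neuropeptide precursor genes none was called by edgeR with all libraries, while DESeq2 called 3 lower, Crh, Scg2 and Nts (1.03% of all genes). By edgeR 8 were lower and 1 higher at an unadjusted p under 0.05 with a median of -0.08. Without saline knockout 3 the median was -0.038, and without the 5 libraries apart edgeR called 2 lower and 1 higher (1.94% and 1.73% of all genes). With all libraries Crh, corticotropin-releasing hormone, was nearest to an edgeR call among the 20 at -0.46 ± 0.0953 (adjusted p 0.0548, edgeR). It had 6.83 to 12.1 CPM after saline and 5.52 to 7.56 CPM after amphetamine. Crh was at -0.29 in control and -0.65 in knockout mice, and the difference of -0.37 was not called. Scg2, a secretogranin of dense-core vesicles, stood at -0.45 ± 0.0956 and Nts, neurotensin, at -0.62 ± 0.154. Pdyn, the dynorphin precursor of direct-pathway neurons, stood at -0.35 ± 0.162.

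Both genotypes were also compared without the shared term, from contrasts that use different mice. All 28 called genes had the same sign in both genotypes and an unadjusted p under 0.05 in each, which follows in part from how they were called. At an adjusted p under 0.05 edgeR called 1 gene within control mice, Plcd4, and 1 within knockout mice, Col6a2. Of the 2546 genes with an unadjusted p under 0.05 in control mice, 65.4% had the same sign in knockout mice, and of 2600 such genes in knockout mice 60.1% had the same sign in control mice, where 52.4% of all tested genes shared their sign. The 328 genes on both of these sets had the same sign in 268 cases (81.7%), 145 lower and 123 higher, and these 268 are 10.5% of the control set and 10.3% of the knockout set. The 65.4% became 82.3% without the 5 libraries apart, where 63.4% of all genes shared their sign. Only amphetamine knockout 1 and 4 remain of their group in that fit. Leaving out single libraries gave 54.0% without amphetamine knockout 4 (49.2% of all genes) to 76.3% without amphetamine knockout 2 (56.8% of all genes).

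**Figure D5:**
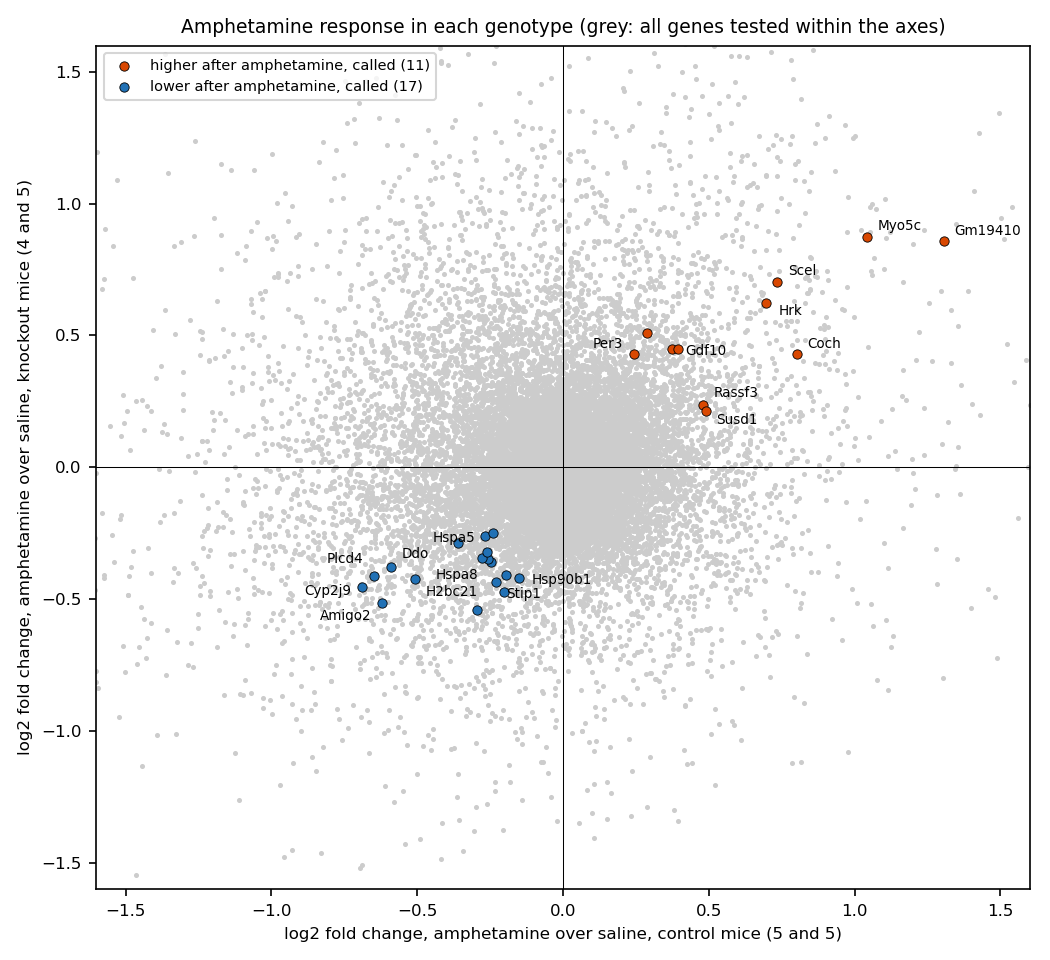
Each point is a gene, with its log2 fold change (amphetamine over saline) in control mice on the horizontal and in knockout mice on the vertical axis, in grey for genes that were not called. The 17 lower and 11 higher called genes lie in the quadrants where both genotypes moved the same way, from -0.65 and -0.41 for Plcd4 to 1.31 and 0.86 for Gm19410.

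By edgeR no gene was called for the difference of the response between genotypes, where 1991 genes (9.25%) had an unadjusted p under 0.05 and the smallest adjusted p was 0.451. DESeq2 called 15 genes for the same difference, with 2129 at an unadjusted p under 0.05. Of the 28 genes of the shared response 3 had an unadjusted p under 0.05 for the difference, namely Hsp90b1, Txnl4a and Susd1. A gene that is not called for the difference may still respond unequally: the 95% interval for Hspa8 spans 0.36 log2 units and that for Gm19410 runs from -1.12 to 0.23.

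No marker of tissue next to the striatum was called by edgeR with all libraries, but several lists had most members on 1 side. DESeq2 called 6 hypothalamic, 2 ependymal, 2 pallidal and septal and 1 thalamic marker lower (1.03% of all genes). It called 2 cortical markers higher (0.939% of all genes). Of 15 hypothalamic and preoptic markers 11 were lower and 0 higher at an unadjusted p under 0.05, with a median of -1.28 (-1.76 in control and -0.76 in knockout mice). Avp, vasopressin, ran from 0.475 to 73.8 CPM after saline and from 0.306 to 8.72 CPM after amphetamine, a log2 fold change of -3.23 ± 0.805 (adjusted p 0.109, edgeR). Of 12 cortical projection neuron markers 8 were higher and 0 lower (median 0.82, and 0.55 without amphetamine knockout 3). Of 12 ependymal markers 8 were lower and 0 higher (median -0.42), and of 12 pallidal and septal markers 5 were lower and 0 higher (median -0.37). With the 5 libraries apart left out, edgeR called 1 hypothalamic, 4 ependymal and 3 pallidal and septal markers lower, and no cortical marker. Of all genes it called 1.94% lower and 1.73% higher in that fit.

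The mean log2 CPM of the hypothalamic list was -1.63 to 1.85 in saline and -2.39 to 0.81 in amphetamine libraries, that of the cortical list 2.87 to 4.54 and 3.25 to 5.37, and that of the ependymal list 1.14 to 2.26 and 0.13 to 2.06. All members of these lists passed the filter on low counts. With these 3 list levels added to the model as covariates, edgeR called 0 genes (smallest adjusted p 0.169, 1277 genes at an unadjusted p under 0.05). All 28 genes kept their sign and an unadjusted p under 0.05 in that fit, which follows in part from how they were called. There the log2 fold change was -0.31 for Hspa8, -0.24 for Hspa5, -0.47 for Plcd4, 0.34 for Per3 and 0.79 for Gm19410, and those of Amigo2 and Hrk were -0.22 and 0.33. The median of the heat shock list was -0.20 and that of the ER list -0.10 with the covariates.

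Of 14 striatal projection neuron markers 12 were above 0 with a median of 0.12, and 1 had an unadjusted p under 0.05. The median was 0.43 in control and -0.18 in knockout mice, and 1 marker was above 0 in both. All 14 were above 0 without the 5 libraries apart, with a median of 0.39. In that fit 9 had an unadjusted p under 0.05 (4551 of all 22041 genes in either direction) and 1 was called higher (1.73% of all genes). With the tissue covariates none was above 0 and the median was -0.12. Leaving out single libraries moved the median from 0.062 without saline control 4 to 0.26 without amphetamine knockout 3. Drd1 stood at 0.06 ± 0.191 and Drd2 at 0.11 ± 0.204, and for Drd1 the values were 0.45 in control and -0.38 in knockout mice (unadjusted p 0.0212 for the difference, not called). Of 12 acetylcholine neuron markers 11 were below 0 (median -0.31), and Chat was at -0.16 ± 0.238. The acetylcholine median was -0.19 without amphetamine knockout 3, -0.17 without the 5 libraries apart and 0.02 with the tissue covariates, where 6 of the 12 were above 0. Col6a2, a collagen of meningeal fibroblasts, was -0.06 in control and 0.74 in knockout mice.

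The authors' deposited tables, which compare amphetamine with saline within each genotype, list 795 genes at an adjusted p under 0.05 in control and 131 in knockout mice. Both of these lists in the authors' deposited tables hold 6 genes in common (0.755% and 4.58% of each), all with the same direction: Hspa8, Hspa5, Nrip2 and H1f2 lower, Scel and Gm19410 higher. Of the 28 genes called here, the authors' deposited table holds 20 for control mice, 12 for knockout mice and 4 for both. For Hspa8 the authors' deposited table gives log2 fold changes of -0.25 in control and -0.35 in knockout mice. Nrip2 and H1f2 were named because they are on both deposited lists.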

How the data were processed

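RNA of dissected striatum was sequenced from 19 mice. The authors deposited whole-number read counts per gene and library, made per the submitters' processing notes with FastQC 0.11.5, Trim Galore 0.5.0, STAR 2.6.0c, HTSeq 0.6.1p2, DESeq2 1.26.0s, R 3.6.1 and GRCm39. No source used here gives the annotation release or the strand setting. The deposited comparison tables hold log2 fold changes, p-values and FPKM. The FPKM columns served only as a check of which library is which (Spearman 0.954 to 0.958 against counts across genes).

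Counts were tested with edgeR 4.0.16 (limma 3.58.1, R 4.3.3): filterByExpr by group, TMM scaling, robust quasi-likelihood fits, and Benjamini-Hochberg adjustment over all 21513 genes, with genes called at an adjusted p under 0.05. The model was genotype plus treatment, and a fit of 4 group means gave the genotype contrasts and their difference. List levels are means of log2 CPM with a prior count of 2. Of 49592 gene IDs, 22901 were named from the deposited tables, 25913 from a gene name table, and 778 have no symbol. Depth was 57003408 to 85536346 counts. P-values measure the spread between mice. No library pair agreed within sampling noise (smallest chi-square per degree of freedom 11.2). The procedure was tested on simulated data. Near copies were found with blastn 2.17.0.

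The members, the 38 gene lists and the tests were chosen with earlier results of these data known. Named genes were the 12 higher and 12 lower by p with a symbol that is no predicted model, called ones first, up to 4 per list by p, and a fixed set that includes Fos, Hspa1a and Drd2. Alternatives were DESeq2 1.42.0, limma voom, RLE scaling, no filter, no genotype term, group means, 2 replicate blocks, 3 tissue covariates, and leaving out libraries. Some genes that this rule names are not reported here.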

Additional observations from a re-analysis of the deposited data

Results flagged for a closer look

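In groups of 4 or 5 mice, 41 of 348 sets of values (a named gene or list level in 1 group) had 1 library far from the others. The cutoff is passed by about 1 in 20 sets of independent, normally distributed values. These sets share libraries and were chosen with earlier results known, so their share cannot be set against that figure. The values apart are given by library in CPM, with the nearest other library of the group in brackets, and list levels in mean log2 CPM.

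Saline control 5 stood apart in Cirbp at 146 (77.6), Rbm3 at 142 (67.2), Fkbp5 at 174 (49.9), Sgk1 at 228 (76.3), Hsph1 at 222 (324), Bhlhe40 at 83.1 (55.4) and Mt2 at 277 (115). Its clock list level was 6.17 (5.74) and its glucocorticoid-induced list level 5.93 (4.20). Saline control 2 stood apart in H2bc21 at 17.5 (11.8) and in the integrated stress response list at 4.74 (4.64). Saline control 4 had Crh at 10.6 (7.56) and Avp at 73.8 (9.22).

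Saline knockout 1 had Cyp2j9 at 56.7 (38.2), Hspa1a at 10.1 (6.84), Fkbp5 at 113 (51.0), Sgk1 at 183 (81.7) and the glucocorticoid-induced list at 5.92 (4.29). Saline knockout 3 had the TRiC chaperonin list at 7.86 (7.57). Saline knockout 4 had Drd1 at 104 (163), Plk2 at 129.7 (160.3), the pallidal and septal list at 4.98 (4.52) and the striatal projection neuron list at 7.47 (8.05). Saline knockout 5 had Nr4a2 at 20.8 (10.7).

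Amphetamine control 1 had Npas4 at 14.6 (20.8), Pdia3 at 203 (169.6), Scg2 at 485 (407.5), Avp at 4.85 (1.19) and Oxt at 8.58 (2.51). Amphetamine control 3 had Amigo2 at 10.7 (14.8), the ependymal list at 0.132 (1.22), the pallidal and septal list at 3.04 (3.96) and the acetylcholine neuron list at 2.89 (3.71). Amphetamine control 5 had Coch at 37.9 (29.9) and the glucocorticoid-induced list at 4.61 (4.14).

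Amphetamine knockout 2 had Aldh1l1 at 50.3 (45.0), Cirbp at 151 (95.6), Rbm3 at 189.8 (116) and Fkbp4 at 122 (116). Amphetamine knockout 3 had Pdia6 at 114 (89.6), and amphetamine knockout 4 had Myo5c at 2.33 (1.54).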

How the results depend on the processing

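The 28 called genes (11 higher, 17 lower) became 424 with DESeq2 (202 and 222, with 2145 genes given no adjusted p), 30 with limma voom, 25 with RLE scaling, 19 with no filter (7 and 12), 23 with no genotype term, 32 with group means, 808 without the 5 libraries apart (381 and 427) and 0 with the 3 tissue covariates (0 and 0). Leaving out single libraries gave 3 to 282 called genes, 1 to 149 higher and 2 to 136 lower. A replicate block by title number gave 16 genes (8 and 8) and one by library number 2 genes (1 and 1). The numbers do not pair the mice: correlations of deviations ran from -0.35 to 0.15 over 27 pairs of title numbers (mean -0.045) and from -0.19 to 0.20 over 9 pairs of library numbers. The difference between genotypes had 0 called genes by edgeR, 15 by DESeq2 and 0 to 0 on leaving out libraries. The same-sign share of 65.4% (all genes 52.4%) was 82.3% without the 5 libraries apart (all genes 63.4%) and 60.7% with no filter (all genes 45.5%). On leaving out libraries it was 54.0% (all genes 49.2%) to 76.3% (all genes 56.8%). The causes were not tested.

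All 28 genes kept their sign and an unadjusted p under 0.05 in each alternative, which follows in part from how they were called in the same libraries. Signs that turned belong to genes that were not called. With tissue covariates Fos was -0.15, Egr1 -0.18, Junb -0.018, Arc -0.35, Nr4a2 -0.22, Sgk1 0.047, Drd1 -0.19, Drd2 -0.15 and Chat 0.11. Without the 5 libraries Npas4 was 0.0061, Fkbp5 0.076 and Sgk1 0.13. Sgk1 was 0.025 with voom and 0.052 with the title block, and Fos -0.013 with the library block. Leaving out libraries gave -0.025 to 0.10 for Fos, -0.13 to 0.057 for Npas4, -0.30 to 0.071 for Fkbp5, -0.24 to 0.18 for Sgk1 and -0.0038 to 0.20 for Drd1.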

Other observations

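Lists not described above held no gene called by edgeR with all 19 libraries in the fit. Of 13 oxidative stress response genes 5 were lower and 0 higher at an unadjusted p under 0.05, with a median log2 fold change of -0.10, and without the 5 libraries apart 1 was lower and 1 higher (median -0.09). Of 20 respiratory chain genes tested 18 were below 0 with a median of -0.06, but without saline knockout 3 the median was -0.013 and without the 5 libraries apart 12 of the 20 were above 0 (median 0.0061). Of 13 mitochondrially encoded genes 12 were below 0 (median -0.06), and without the 5 libraries 7 were above 0 (median 0.0047). Of 12 mature oligodendrocyte markers 11 were below 0 (median -0.06), and 8 without the 5 libraries (median -0.04). Microglial markers had a median of 0.03 with 2 of 13 higher at an unadjusted p under 0.05, and of 0.10 without the 5 libraries, where 1 was called higher by edgeR (1.73% of all genes). Of 8 blood markers 7 were below 0 with a median of -0.59, which was -0.26 without saline knockout 3, -0.34 without saline control 2 and -0.20 without the 5 libraries. Choroid plexus markers had a median of 0.22, which was -0.36 without amphetamine knockout 2 and -0.44 without the 5 libraries, where 2 of 10 were called lower by edgeR (1.94% of all genes).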
